A study of Rattus norvegicus with 15 samples.

Results

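Mast cells of the intestine were followed through 8 genes, Mcpt1, Mcpt2, Cpa3, Fcer1a, Ms4a2, Tpsab1, Kit and Hdc. Their members on the array are the probes outside the controls that carry 1 of these gene names, each taken apart. They are 8 of the 15394 gene symbols on the array (names that are only identifiers left out) and 10 of its 41012 probes, with 2 probes each for Ms4a2 and Kit and 1 for each other gene. RNA came from the intestine of 15 male rats in 3 groups of 5, and each rat had an array of its own. Wistar rats had no operation and served as the nondiabetic state. GK-Sham-PF rats were sham-operated at 16 wk of age and pair-fed. They belong to the Goto-Kakizaki (GK) strain, which is diabetic by inheritance and not obese. GK-S-30 rats were GK rats given Roux-en-Y gastric bypass (RYGB) at the same age, with a Roux limb (RL) of 30 cm. Tissue was taken 14 wk after the operation, with age-matched Wistar rats, as a 5-cm piece of the RL 5 cm from its junction with the stomach in GK-S-30 rats and as the segment 21 to 26 cm from the ligament of Treitz in the other groups. Strain differs between GK and Wistar rats together with diabetes, operation and feeding, so that these cannot be told apart in a comparison with Wistar rats. The piece was whole intestine, in which fewer cells of a type and less RNA per cell cannot be told apart.

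Mast cells of the rat fall into a mucosal kind, in the epithelium and lamina propria, and a connective tissue kind, and the kinds are classically told apart by the chymases in their granules. Mcpt2 is the chymase of the mucosal kind, released into the lumen and the blood when mast cells degranulate. Cpa3 encodes the mast cell carboxypeptidase and Tpsab1 a tryptase. Fcer1a and Ms4a2 encode the alpha and beta chains of the high-affinity IgE receptor, through which antigen sets off degranulation. Kit is the receptor for stem cell factor, on which mast cells depend, and is also carried by the interstitial cells of Cajal in the muscle wall. Hdc makes histamine. The gene names used here are those of the array. By their transcripts, current RefSeq names (assembly GRCr8) differ for a pair of them: the transcript of the array's Mcpt2 probe is now called Mcpt1, with rMCP-1 and rMCP-2 among its synonyms, and that of the array's Mcpt1 probe is now called Vch.

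The results below turn on the 60-base probes of Mcpt2, Cpa3, Fcer1a and Ms4a2, shown in lower case and read 5′ to 3′. Both Ms4a2 probes are shown because its probes lie in different stretches of the gene. Positions are those of the array's annotation (rn4), and exons were not assigned because no annotation of that build was used here.
Cpa3 (chr2:105385518-105385577, minus strand): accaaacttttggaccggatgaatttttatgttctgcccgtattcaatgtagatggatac
Fcer1a (chr13:89434270-89434329, minus strand): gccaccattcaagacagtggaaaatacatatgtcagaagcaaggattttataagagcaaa
Ms4a2 probe 1 (chr1:214018326-214018385, plus strand): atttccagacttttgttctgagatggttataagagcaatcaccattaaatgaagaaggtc
Ms4a2 probe 2 (chr1:214012629-214012688, plus strand): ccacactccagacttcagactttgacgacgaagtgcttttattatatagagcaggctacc

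The Mcpt2 probe was compared with every other probe of the array, since granule proteases form families of similar genes. Among the 10 member probes, it was the only one to share a run of 20 or more bases with another probe. That probe has no gene symbol and is described in the array's annotation as mast cell protease 1. Aligned, the pair had the same base at 32 of 39 positions, with a longest shared run of 23 bases. Shared bases are in capitals.
Mcpt2 (chr15:34557829-34557888, plus strand): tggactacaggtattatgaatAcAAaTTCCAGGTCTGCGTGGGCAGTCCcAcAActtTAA
probe described as mast cell protease 1 (chr15:34590324-34590791, minus strand): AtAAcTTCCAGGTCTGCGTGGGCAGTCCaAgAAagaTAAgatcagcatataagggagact
Whether transcripts of one gene bind the other's probe was not tested.

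Arrays differed in brightness. The 75th percentile of the processed signal was 207 on Wistar replicate 3 and 208 on GK-Sham-PF replicate 5, against 302 to 357 on the other arrays. The share of probes well above background was 66.7% to 74.8%. The arrays lay on 4 slides, each with 3 or 4 of them. The first slide held 4 Wistar arrays, the second 1 Wistar and 3 GK-Sham-PF arrays, the third 2 arrays each of GK-Sham-PF and GK-S-30 and the last 3 of GK-S-30, so that slide and group were partly confounded. Levels are log2 signals after quantile normalization. A probe was tested where it was well above background on all 5 arrays of at least 1 group, and a difference was called at a Benjamini-Hochberg adjusted p under 0.05 in limma's model over 27893 tested probes. Of the 10 member probes, 9 were tested. Mcpt1 was not, because it was well above background on 1 of 15 arrays.

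**Figure D1:**
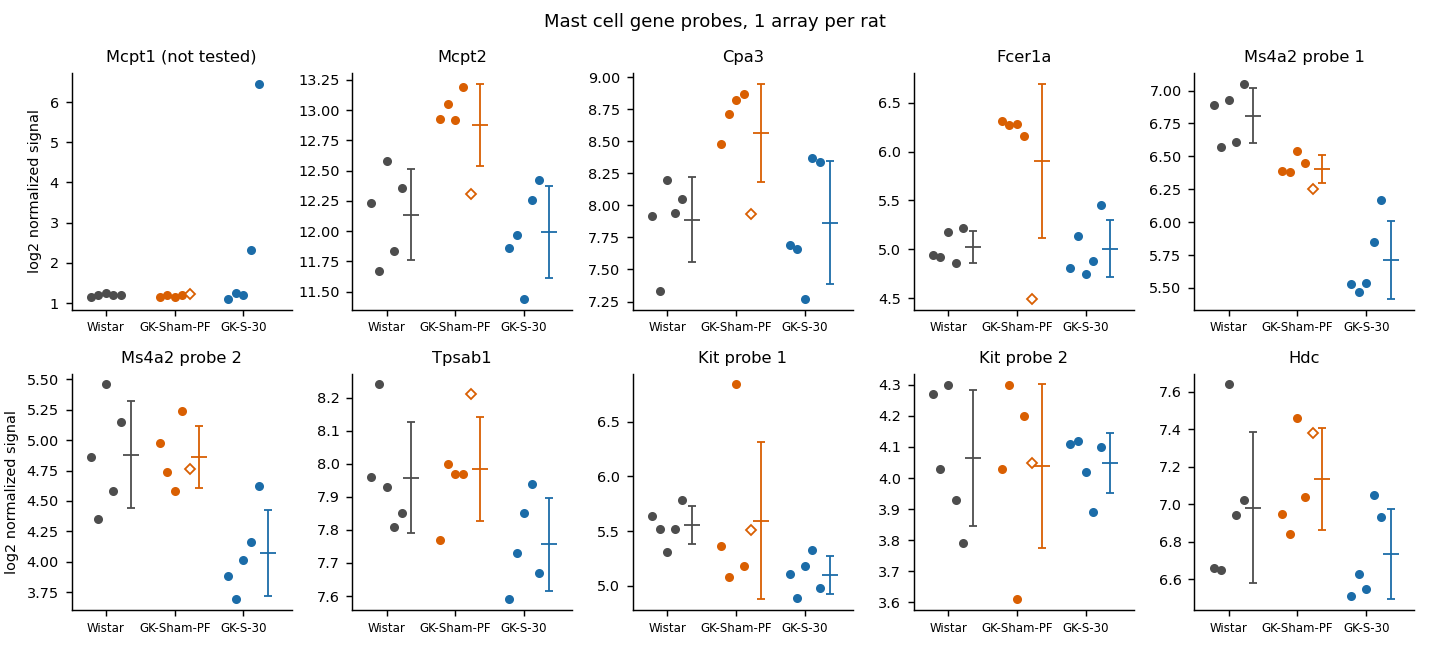
Log2 normalized signal (y axis, a scale of its own in each panel) of the 10 mast cell gene probes on 15 arrays, 1 point per rat, with the mean and SD of each group beside the points except for Mcpt1. The open diamond is GK-Sham-PF replicate 5; Fcer1a lay at 4.49 there and between 6.16 and 6.31 on the other 4 GK-Sham-PF arrays, and all 5 GK-S-30 arrays of Ms4a2 probe 1 lay below the arrays of both other groups.

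Mcpt2 was higher in GK-Sham-PF than in Wistar rats and lower again in GK-S-30 rats. Its log2 level was 12.23, 11.67, 12.58, 11.84 and 12.36 in Wistar replicates 1 to 5. It was 12.93, 13.05, 12.92, 13.19 and 12.31 in GK-Sham-PF rats and 11.86, 11.97, 11.44, 12.26 and 12.42 in GK-S-30 rats. Replicates 1 to 4 of GK-Sham-PF stood above all 10 arrays of the other groups, and replicate 5 lay among them. The level was 1.85-fold lower after RYGB than after the sham operation, a log2 difference of -0.89 ± 0.21 (SE, 95% confidence interval -1.35 to -0.43, limma adjusted p = 0.022). It was 1.67-fold higher in GK-Sham-PF than in Wistar rats (log2 difference 0.74 ± 0.21 SE, limma adjusted p = 0.0455). From Wistar rats, those with RYGB differed by -0.15, with an interval of -0.6 to 0.31 (limma adjusted p = 0.674). Without GK-Sham-PF replicate 5, the first of these differences was -1.03 (limma adjusted p = 0.00923) and the second 0.89 (limma adjusted p = 0.0138). In 15 fits that each left out 1 array, the call between GK-Sham-PF and Wistar rats was lost in 11 (limma adjusted p of 0.0511 to 0.116) and kept in 4, those without GK-Sham-PF replicate 5, Wistar replicate 3 or GK-S-30 replicate 3 or 5. The call between RYGB and sham-operated GK rats was lost in 5 of 15 (limma adjusted p of 0.0507 to 0.0558), those without GK-Sham-PF replicate 1, 2 or 4 or GK-S-30 replicate 1 or 3.

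The probe described as mast cell protease 1 was chosen after its values were seen, through its shared run with Mcpt2. Its level was 9.89 to 10.96 in Wistar, 10.55 to 11.49 in GK-Sham-PF and 9.73 to 10.66 in GK-S-30 rats. It moved in the same directions as Mcpt2, by -0.84 ± 0.23 (SE) on the log2 scale between RYGB and sham-operated GK rats (limma adjusted p = 0.0386) and by 0.78 ± 0.23 between GK-Sham-PF and Wistar rats (limma adjusted p = 0.0469). GK-Sham-PF replicate 5 was the lowest of its group here also, at 10.55, against 11.19 to 11.49 on the other 4 arrays.

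Cpa3, the mast cell carboxypeptidase, had the same order of group means without passing the threshold. Its level was 7.92, 7.33, 8.20, 7.94 and 8.05 in Wistar, 8.48, 8.71, 8.82, 8.87 and 7.93 in GK-Sham-PF and 7.69, 7.66, 7.27, 8.37 and 8.34 in GK-S-30 replicates 1 to 5. Again 4 GK-Sham-PF arrays lay above all arrays of the other groups and replicate 5 did not. The log2 difference was -0.70 ± 0.24 (SE) for RYGB against sham-operated GK rats (limma adjusted p = 0.0944) and 0.68 ± 0.24 for GK-Sham-PF against Wistar rats (limma adjusted p = 0.107). Without GK-Sham-PF replicate 5, the lowest array of its group, both passed, at -0.85 (limma adjusted p = 0.0374) and 0.83 (limma adjusted p = 0.0321). Neither passed in any other fit that left out 1 array. Over all such fits the differences were -0.85 to -0.55 and 0.54 to 0.83. GK-S-30 and Wistar rats differed by -0.02, with an interval of -0.52 to 0.48.

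The chains of the IgE receptor did not follow 1 pattern. Fcer1a, the alpha chain that binds IgE, lay at 4.94, 4.92, 5.18, 4.86 and 5.22 in Wistar and at 4.81, 5.14, 4.75, 4.88 and 5.45 in GK-S-30 rats, ranges that overlapped nearly in full. In GK-Sham-PF rats it was 6.31, 6.27, 6.28, 6.16 and 4.49. Thus 4 of these arrays stood above every Wistar and GK-S-30 array, and replicate 5 lay below every one of them. The log2 difference was -0.90 ± 0.29 (SE) for RYGB against sham-operated GK rats (limma adjusted p = 0.0775) and 0.88 ± 0.29 for GK-Sham-PF against Wistar rats (limma adjusted p = 0.0811). Without GK-Sham-PF replicate 5 these were -1.25 ± 0.14 (limma adjusted p = 0.000257) and 1.23 ± 0.14 (limma adjusted p = 3.44e-05). Neither passed in any other fit that left out 1 array. Over all such fits the differences were -1.25 to -0.79 and 0.78 to 1.23. Both differences also passed when arrays were weighted by quality (-1.14, limma adjusted p = 0.00164, and 1.20, limma adjusted p = 0.000136). These weights were estimated from the same data and gave GK-Sham-PF replicate 5 a weight of 0.25. That fit is therefore not separate from leaving this array out. With 75th percentile scaling the first difference passed (-1.01, limma adjusted p = 0.0312).

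Ms4a2, the beta chain, was lowest in GK-S-30 rats by both of its probes and was not higher in GK-Sham-PF than in Wistar rats by either. Probe 1 gave 6.89, 6.57, 6.93, 6.61 and 7.05 in Wistar rats, 6.39, 6.38, 6.54, 6.45 and 6.25 in GK-Sham-PF rats and 5.53, 5.47, 5.54, 5.85 and 6.17 in GK-S-30 rats. The 3 groups did not overlap in any pair, which held for 7.71% of all tested probes in the comparison of GK-S-30 with GK-Sham-PF arrays, for 8.82% in that of GK-Sham-PF with Wistar arrays and for 18% in that of GK-S-30 with Wistar arrays. GK-S-30 rats were 1.62-fold below GK-Sham-PF rats (log2 difference -0.69 ± 0.14 SE, limma adjusted p = 0.00801) and 2.15-fold below Wistar rats (-1.10 ± 0.14, limma adjusted p = 4.21e-05). With normexp background correction these differences were smaller, -0.36 (limma adjusted p = 0.00676) and -0.57 (limma adjusted p = 3.53e-05). This setting adds an offset of 50 to every signal, which by itself narrows log2 differences of dim probes. The difference of -0.41 ± 0.14 between GK-Sham-PF and Wistar rats missed the threshold (limma adjusted p = 0.0938).

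Ms4a2 probe 2 was dimmer and more scattered. It gave 4.86, 4.35, 5.46, 4.58 and 5.15 in Wistar, 4.98, 4.74, 4.58, 5.24 and 4.76 in GK-Sham-PF and 3.88, 3.69, 4.01, 4.16 and 4.62 in GK-S-30 rats, where 4 of 5 arrays were well above background. GK-S-30 replicate 5 alone reached into the range of the other groups. The log2 difference was -0.79 ± 0.21 (SE) against GK-Sham-PF rats (limma adjusted p = 0.0365) and -0.81 ± 0.21 against Wistar rats (limma adjusted p = 0.0123). Between GK-Sham-PF and Wistar rats it was -0.02, with an interval of -0.47 to 0.43, which holds the value of probe 1. Without GK-Sham-PF replicate 5 the difference between RYGB and sham-operated GK rats was -0.81 and just missed the threshold (limma adjusted p = 0.0514). This call was lost in 8 of 15 fits that each left out 1 array (limma adjusted p of 0.0514 to 0.0846), those without GK-Sham-PF replicate 1, 2, 4 or 5 or GK-S-30 replicate 1, 2, 3 or 4. With normexp background correction the difference was -0.11 (limma adjusted p = 0.34). The offset of 50 in that setting exceeds the processed signals of this probe, which were 12.33 to 41.77.

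Fcer1g, the gamma chain that this receptor shares with other immune receptors, was lower in GK-S-30 rats as well, by -0.45 ± 0.12 (SE) on the log2 scale against GK-Sham-PF rats (limma adjusted p = 0.0322) and by -0.35 against Wistar rats (limma adjusted p = 0.0446). Of the 14 listed genes of IgE receptor signalling, it was the only one called between RYGB and sham-operated GK rats. There 6.7% of all tested probes were called. Lat2, an adaptor of this pathway, was the only one called between GK-Sham-PF and Wistar rats, at 0.43 (limma adjusted p = 0.0325), against 7.83% of all tested probes. Both counts lie near the background share. Itpr3, an intracellular calcium channel, was higher in GK-S-30 than in Wistar rats, by 0.93 (limma adjusted p = 0.0159). In that comparison 2 of the 14 were called, against 22.8% of all tested probes. The median log2 difference of the 14 genes was -0.06, 0.05 and -0.06 in the 3 comparisons, near that of all tested probes (-0.03, 0 and -0.03, each in the order RYGB against sham operation, sham operation against Wistar and RYGB against Wistar).

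The remaining members were called in no comparison. The tryptase Tpsab1 ranged from 7.59 to 8.24 over all 15 arrays, and its log2 difference between RYGB and sham-operated GK rats was -0.23, with an interval of -0.46 to 0.01. Hdc, the histamine-forming enzyme, ranged from 6.51 to 7.64 and differed by -0.40 between RYGB and sham-operated GK rats (interval -0.8 to 0, limma adjusted p = 0.247). The interval of Hdc holds the differences of both Ms4a2 probes, and that of Tpsab1 does not.

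Kit has a pair of probes, of which only probe 2 is tied to the gene by the tables used here. Probe 1 carries the name Kit but has no position in the array's annotation, and its transcript had no symbol in RefSeq. Once group means were removed, the levels of the probes went against each other over the 15 arrays, with a Pearson coefficient of -0.83. Probe 1 ranged from 5.31 to 5.78 in Wistar and from 4.89 to 5.33 in GK-S-30 rats, and in GK-Sham-PF rats it was 5.36, 5.08, 6.84, 5.18 and 5.51. Replicate 3 stood apart from the other 4 arrays there. Probe 2 ranged from 3.61 to 4.30 over all arrays and was lowest on that same array. Neither was called, with log2 differences between RYGB and sham-operated GK rats of -0.50 (interval -1.04 to 0.04) for probe 1 and 0.01 (interval -0.27 to 0.29) for probe 2. Of 4 tested genes of interstitial cells of Cajal, which also carry Kit, 1 was called: Kcnmb1, a potassium channel subunit also found in smooth muscle, was higher after RYGB than after the sham operation by 0.69 (limma adjusted p = 0.0303). Ano1, the defining channel of these cells, differed by 0.16 (limma adjusted p = 0.788). Over all tested probes 6.7% were called in this comparison.

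Mcpt1, by the array's name, was not well above background on 14 arrays, where its log2 level was 1.10 to 2.33. On GK-S-30 replicate 5 it was well above background at 6.45. No fold or test is given for it. Its probe reads, at chr15:34272209-34272268 on the plus strand, as follows.
Mcpt1: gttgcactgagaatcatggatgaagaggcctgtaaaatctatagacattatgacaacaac

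Counted over probes, 3 of the 9 tested were called between RYGB and sham-operated GK rats, all lower: Mcpt2 and both Ms4a2 probes. In this comparison 6.7% of all tested probes were called and 2.8% were called and lower. The arrays of these groups did not overlap for 1 of the 9, Ms4a2 probe 1, against 7.71% of all probes. The median log2 difference over the 9 was -0.69, and 8 of 9 were below 0, while the median over all tested probes was -0.03. Between GK-Sham-PF and Wistar rats, 1 of 9 was called, Mcpt2, which was higher. Here 7.83% of all probes were called and 3.61% were called and higher, and the median over the members was 0.04. Between GK-S-30 and Wistar rats, 2 of 9 were called, both Ms4a2 probes, which were lower. Since 22.8% of all probes were called there and 11.8% were called and lower, that share lies near the background. The comparisons share groups, so they do not bear on each other as separate evidence.

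**Figure D2:**
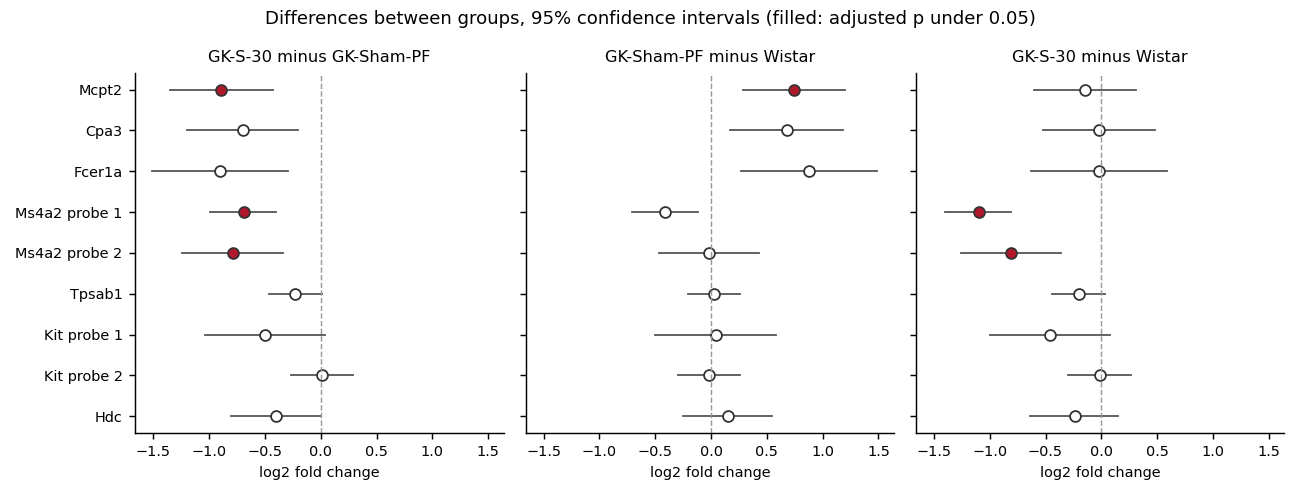
Log2 fold change (x axis) of the 9 tested mast cell gene probes in 3 comparisons, with 95% confidence intervals from limma's model. Filled points passed an adjusted p of 0.05: Mcpt2 (-0.89) and both Ms4a2 probes (-0.69 and -0.79) for RYGB against sham operation, Mcpt2 (0.74) for sham operation against Wistar, and both Ms4a2 probes (-1.10 and -0.81) for RYGB against Wistar.

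Because slide and group were partly confounded, the comparisons were repeated with slide as a block and within slides. With slide as a fixed block no member was called in any comparison, and the share of all probes called dropped to 1.37%, 1.48% and 1.63%. For RYGB against sham-operated GK rats the log2 difference was then -0.84 ± 0.37 (SE) for Mcpt2 (limma adjusted p = 0.292), -0.85 ± 0.22 for Ms4a2 probe 1 (limma adjusted p = 0.0776) and -1.22 ± 0.33 for Ms4a2 probe 2 (limma adjusted p = 0.0979). These are also the differences within the third slide, which held 2 arrays of each of these groups and was the only one to hold both. That of Fcer1a within this slide was -0.35, with GK-Sham-PF replicate 5 among its 4 arrays. Within the second slide, with 3 GK-Sham-PF arrays and 1 Wistar array, the differences were 0.74 for Mcpt2, 0.75 for Cpa3 and 1.35 for Fcer1a.

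Levels of some members went together from rat to rat. Over the 15 arrays, the level of Mcpt2 went with that of Cpa3 at a Pearson coefficient of 0.945 and, once group means were removed, of 0.913. For Fcer1a these values were 0.845 and 0.694, for Ms4a2 probe 1 0.405 and 0.779, and for Ms4a2 probe 2 0.654 and 0.718. Tpsab1 had 0.099 and -0.42 and Hdc 0.552 and 0.386. Fcer1a went less closely with Ms4a2, at 0.48 for probe 1 and 0.29 for probe 2 once group means were removed. The coefficients are given as a description of 15 arrays that share slides and groups. Among all 27893 tested probes, 4 other than the Mcpt2 probe itself had a coefficient with it over 0.9.

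**Figure D3:**
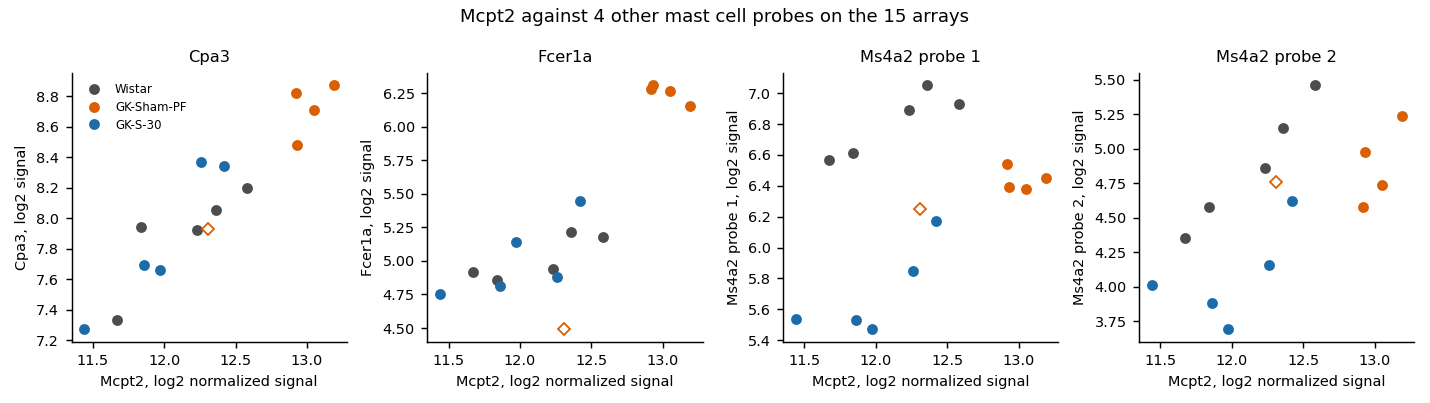
Log2 normalized signal of Mcpt2 (x axis) against Cpa3, Fcer1a and both Ms4a2 probes (y axes) on 15 arrays, colored by group, with GK-Sham-PF replicate 5 as an open diamond. Cpa3 rose with Mcpt2 along 1 band through all groups, whereas in Ms4a2 probe 1 the groups formed separate bands, with GK-S-30 lowest.

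Outside the members, the 5 named genes most like Mcpt2 by this coefficient were Mcpt8l3 (0.886), Mcpt8l2 (0.88), Evl (0.857), C1qb (0.856) and Dnmt3l (0.848). The first pair are granule proteases encoded beside Mcpt2. Evl, C1qb and Dnmt3l were called in neither comparison with GK-Sham-PF rats, where their log2 differences lay between -0.38 and 0.43.

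On the array's annotation, 14 probes of 13 protease genes lie within 1112 kb of chromosome 15, from Cma1 to Gzmb (chr15:34083229-35195517). Mcpt8, Mcpt8l2 and Mcpt8l3 were all higher in GK-Sham-PF than in Wistar rats. Mcpt8 was 6.91, 6.97, 7.07, 6.87 and 7.07 in Wistar, 7.92, 7.54, 7.96, 7.76 and 7.37 in GK-Sham-PF and 6.84, 7.09, 7.17, 7.12 and 7.09 in GK-S-30 rats. All 5 GK-Sham-PF arrays, replicate 5 included, stood above the 10 others. The log2 difference was 0.73 ± 0.12 (SE) between GK-Sham-PF and Wistar rats (limma adjusted p = 0.000694) and -0.65 ± 0.12 between RYGB and sham-operated GK rats (limma adjusted p = 0.00387). Mcpt8l3 differed by 0.61 (limma adjusted p = 0.0104) and -0.72 (limma adjusted p = 0.00571) in these comparisons, and Mcpt8l2 by 1.08 (limma adjusted p = 0.00597) and -0.75, the latter not called (limma adjusted p = 0.0612, and 0.0112 without GK-Sham-PF replicate 5). Mcpt9 was lower after RYGB than after the sham operation by -0.65 (limma adjusted p = 0.0213), and its difference of 0.21 between GK-Sham-PF and Wistar rats was not called (limma adjusted p = 0.538, and 0.049 at a difference of 0.37 without replicate 5). With slide as a fixed block none of these calls held. For GK-Sham-PF against Wistar rats Mcpt8 was then at 0.90 (limma adjusted p = 0.0653), Mcpt8l3 at 0.83 (limma adjusted p = 0.189) and Mcpt8l2 at 1.16 (limma adjusted p = 0.371). For RYGB against sham-operated GK rats Mcpt8 was at -0.60 (limma adjusted p = 0.133), Mcpt8l3 at -0.68 (limma adjusted p = 0.146) and Mcpt9 at -0.52 (limma adjusted p = 0.28).

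The probes of Mcpt8 and Mcpt8l3 cover the same stretch of similar genes and differ at 10 of 60 positions, which are in capitals, so their values may not be separate.
Mcpt8 (chr15:34409852-34409911, plus strand): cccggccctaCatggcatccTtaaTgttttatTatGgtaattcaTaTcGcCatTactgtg
Mcpt8l3 (chr15:34387064-34387123, plus strand): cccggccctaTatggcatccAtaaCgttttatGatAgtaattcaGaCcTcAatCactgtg
The Mcpt8l2 probe shares a run of 21 bases with that of Mcpt8l3. None of them shares more than 7 bases in a row with the Mcpt2 probe.

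Not every protease of the cluster followed. Cma1, a chymase of connective tissue mast cells, was lower in both GK groups than in Wistar rats. By the brighter of its 2 probes it was 8.56 to 9.52 in Wistar, 7.27 to 8.18 in GK-Sham-PF and 6.85 to 8.62 in GK-S-30 rats. The log2 difference from Wistar rats was -1.23 ± 0.29 (SE) in GK-Sham-PF (limma adjusted p = 0.0152) and -1.04 ± 0.29 in GK-S-30 rats (limma adjusted p = 0.019), and the other probe gave -1.17 and -1.01. The granzymes Gzmb and Gzmc, proteases of cytotoxic lymphocytes, were higher in GK-Sham-PF than in Wistar rats by 1.06 (limma adjusted p = 0.00142) and 1.61 (limma adjusted p = 0.000502). Gzmc was as high in GK-S-30 rats, with 1.76 against Wistar rats (limma adjusted p = 0.00012), whereas Gzmb differed by -0.63 between RYGB and sham-operated GK rats (limma adjusted p = 0.0516). With slide as a fixed block these calls were lost as well, and GK-Sham-PF against Wistar rats gave -1.38 for Cma1 (limma adjusted p = 0.373), 1.28 for Gzmb (limma adjusted p = 0.104) and 1.74 for Gzmc (limma adjusted p = 0.141). Mcpt1l4, Mcpt3, Mcpt4 and Ctsg were not above background on all arrays of any group and were not tested.

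**Figure D4:**
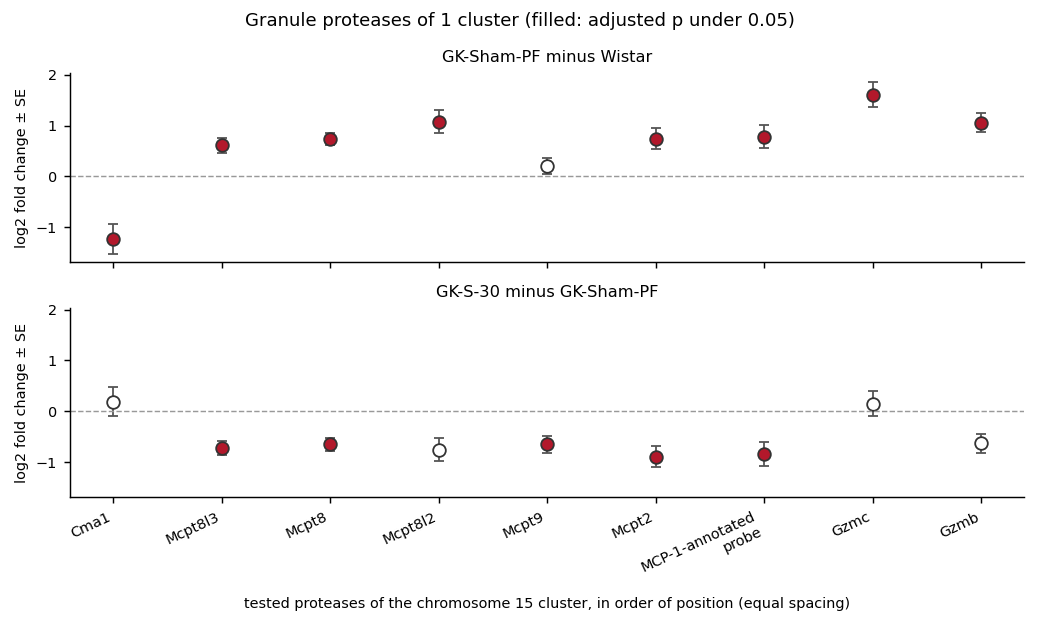
Log2 fold change with its SE (y axis) of the tested proteases of the chromosome 15 cluster, in order of position, for GK-Sham-PF minus Wistar and GK-S-30 minus GK-Sham-PF. Mcpt8l3, Mcpt8, Mcpt2 and the probe described as mast cell protease 1 were called in both panels (filled), above 0 in the upper and below 0 in the lower, and Cma1 (-1.23) lay below 0 in the upper panel.

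Among the other tryptases, which like Tpsab1 are encoded on chromosome 10, Tpsb2 was not called, with a log2 difference of -0.59 ± 0.28 (SE) between RYGB and sham-operated GK rats (limma adjusted p = 0.24). Tpsg1, a membrane-bound tryptase, was higher in GK-S-30 rats, by 0.51 against GK-Sham-PF (limma adjusted p = 0.023) and 0.58 against Wistar rats (limma adjusted p = 0.00326), which slide as a fixed block turned into 0.75 (limma adjusted p = 0.0613) and 0.97 (limma adjusted p = 0.105). In all, 4 of 9 tested proteases outside the members were called between RYGB and sham-operated GK rats, 3 of them lower. Over all tested probes 6.7% were called there and 2.8% were called and lower. Between GK-Sham-PF and Wistar rats 6 of 9 were called, 5 of them higher. Here the shares over all tested probes were 7.83% called and 3.61% called and higher. Since probes of Mcpt8, Mcpt8l2 and Mcpt8l3 share sequence, these counts may not be of separate signals.

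Promoters are shown for Mcpt2 and for Cpa3 and Fcer1a, the members with the highest coefficients with Mcpt2 over the 15 arrays when group differences were left in, as the 300 bases from 250 before to 50 after the transcript start in RefSeq (GRCr8). AGATAA and TGATAA, hexamers that GATA factors of mast cells can bind, were searched on both strands, and matches are in capitals. RefSeq promoters were found for 7 of the 8 genes, none for Ms4a2.
Mcpt2 (RefSeq Mcpt1, chr15:33841356-33841655, plus strand): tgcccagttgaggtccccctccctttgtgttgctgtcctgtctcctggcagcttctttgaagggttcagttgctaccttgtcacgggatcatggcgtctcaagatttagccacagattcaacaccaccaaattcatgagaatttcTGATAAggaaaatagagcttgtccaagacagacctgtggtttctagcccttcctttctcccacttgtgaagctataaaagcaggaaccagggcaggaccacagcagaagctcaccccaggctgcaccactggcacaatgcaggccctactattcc
Cpa3 (chr2:104673188-104673487, minus strand): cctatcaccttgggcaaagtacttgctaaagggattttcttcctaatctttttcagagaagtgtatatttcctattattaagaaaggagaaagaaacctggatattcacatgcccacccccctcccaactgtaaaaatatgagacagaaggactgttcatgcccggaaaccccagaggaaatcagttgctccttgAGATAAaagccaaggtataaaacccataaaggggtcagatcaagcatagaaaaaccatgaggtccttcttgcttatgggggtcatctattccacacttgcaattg
Fcer1a (chr13:88224630-88224929, minus strand): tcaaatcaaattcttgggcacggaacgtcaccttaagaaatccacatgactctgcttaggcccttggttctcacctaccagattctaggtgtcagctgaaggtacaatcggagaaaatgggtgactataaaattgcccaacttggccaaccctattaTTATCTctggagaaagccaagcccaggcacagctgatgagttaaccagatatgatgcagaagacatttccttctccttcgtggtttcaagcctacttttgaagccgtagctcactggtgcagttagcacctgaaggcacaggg
Each of these held 1 match, starting at -105 in Mcpt2, -55 in Cpa3 and -93 in Fcer1a from the transcript start, the last on the opposite strand. The promoter of the array's Mcpt1 held 2, and those of Tpsab1, Kit and Hdc held none. Over all 33469 RefSeq promoters of this length, 18.9% held at least 1. These matches describe the sequence and no binding was measured. Gata2, a factor of the mast cell lineage, had a log2 difference of -0.46 between RYGB and sham-operated GK rats and was not called (limma adjusted p = 0.107), and Gata1 and Mitf were not tested.

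Genes that govern the growth and homing of mast cells were listed apart, 19 of which were tested. Between RYGB and sham-operated GK rats 1 was higher and 1 lower, a count near the 6.7% of all tested probes called there. Il1rl1, the receptor for IL-33, was 4.12 to 5.47 in Wistar, 4.31 to 5.72 in GK-Sham-PF and 6.37 to 10.23 in GK-S-30 rats, a log2 difference of 3.52 ± 0.55 (SE, limma adjusted p = 0.0015) against GK-Sham-PF rats. Its second, dimmer probe did not show it, at -0.14 (limma adjusted p = 0.849). Itgae, an integrin subunit that holds lymphocytes and mucosal mast cells in the epithelium, was lower by -0.61 (limma adjusted p = 0.00879) by its brighter probe, while its dimmer probe gave 0.22 (limma adjusted p = 0.629). Il33 differed by 1.26 in this comparison, which missed the threshold (limma adjusted p = 0.063), and its dimmer probe gave 1.49 (limma adjusted p = 0.0247). Il9r, the receptor for IL-9, was well above background on all 5 Wistar arrays and on no other. It passed the filter only through the group where it was high, so its test is not used as support. Its level in GK rats can only be bounded, and it was at least 1.78-fold higher in Wistar than in GK-Sham-PF rats. Kitlg, the stem cell factor that Kit binds, was called in no comparison, with differences of 0.32, -0.22 and 0.10 in the same order as above.

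Of 10 tested genes for the granule matrix and for lipid mediators, 3 were called between RYGB and sham-operated GK rats by the brightest probe of each gene, all higher and all enzymes or helpers of eicosanoid synthesis that other leukocytes also express. Over all tested probes 6.7% were called in this comparison. Alox5ap rose by 1.00 (limma adjusted p = 0.00375), Alox5 by 0.61 (limma adjusted p = 0.0385) and Ptgs1 by 0.54 (limma adjusted p = 0.0249). Slc18a2, which loads amines such as histamine into granules, was not called by its brighter probe (-0.14, limma adjusted p = 0.563), but its dimmer probe was lower by -0.56 (limma adjusted p = 0.041), with no overlap between these groups. Srgn, the proteoglycan core of the granule, differed by -0.40 and was not called (limma adjusted p = 0.152). Of 4 tested genes for the handling of histamine, Hnmt, which methylates it, was higher after RYGB than after the sham operation by 0.83 (limma adjusted p = 0.0411) and Slc22a3, a transporter of organic cations, lower by -1.02 (limma adjusted p = 0.022). Hrh4, a histamine receptor of leukocytes, was lower than in Wistar rats by -0.75 (limma adjusted p = 0.00604). Aoc1, the diamine oxidase of the intestinal epithelium, was called in no comparison. The same held for the 3 tested receptors that sense serine proteases, among which F2rl1 differed by 0.17 between RYGB and sham-operated GK rats (limma adjusted p = 0.495).

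Markers of other cell types differed between the same groups, in both directions. Over all tested probes, 6.7% were called between RYGB and sham-operated GK rats and 2.8% were called and lower. Between GK-Sham-PF and Wistar rats these shares were 7.83% called and 3.61% called and higher. The mean log2 level of 11 T and NK cell genes was 7.83 to 8.27 in Wistar, 7.86 to 8.54 in GK-Sham-PF and 7.59 to 8.08 in GK-S-30 rats. Of these genes 5 were lower after RYGB than after the sham operation and none higher, with a median log2 difference of -0.52, and Klrd1, an NK cell receptor, was higher in GK-Sham-PF than in Wistar rats by 1.06 (limma adjusted p = 0.00463). GK-Sham-PF replicate 5, at 7.86, was the lowest of its group in this list also, as it was for the mean of the mast cell genes (7.44, against 7.74 to 8.12 on the other 4 arrays). The mean of 9 smooth muscle genes was 10.05 to 11.16 in GK-Sham-PF and 11.58 to 11.87 in GK-S-30 rats. Of these, 6 were higher and none lower, led by Actg2, an actin of visceral smooth muscle, at 2.35 (limma adjusted p = 7.79e-05). Of 4 B and plasma cell genes, 2 were higher and none lower after RYGB than after the sham operation, and 2 were higher in GK-Sham-PF than in Wistar rats. Their mean was 7.48 to 7.90 in Wistar, 8.15 to 9.11 in GK-Sham-PF and 8.37 to 9.01 in GK-S-30 rats. Of 3 neutrophil genes none was called between RYGB and sham-operated GK rats, and 2 were higher in GK-Sham-PF than in Wistar rats, with means of 3.62 to 5.11 in Wistar, 6.08 to 7.03 in GK-Sham-PF and 5.43 to 6.71 in GK-S-30 rats. S100a8, 1 of the 2, was well above background on 11 of 15 arrays. Its mean of 1.80 in Wistar rats lowers the mean of the list there, and it passed the filter only through GK arrays. S100a9 differed by 2.03 and Mpo, not called, by 0.48. Elane, Camp and Cxcr2 were not tested. None of 8 macrophage and dendritic cell genes, 6 gastric and enterochromaffin-like genes and 2 blood genes was called between RYGB and sham-operated GK rats, and of 6 type 2 lymphoid genes 2 were higher and 1 lower. The mean of 11 epithelial genes lay between 15.25 and 15.76 on all arrays. Of the 11, 1 was called between RYGB and sham-operated GK rats, near the share over all tested probes. The part of a changed mix of tissue layers or immune cells in the differences of Mcpt2 and Ms4a2 was not tested. Of 4 tested eosinophil and basophil genes, Mcpt8, which is also a member of that list, was the only one called in this comparison.

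**Figure D5:**
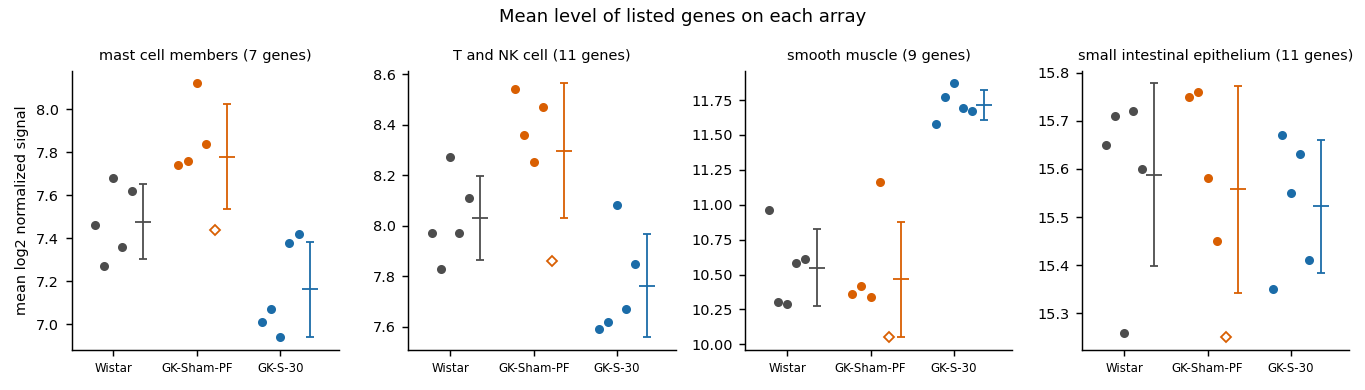
Mean log2 normalized signal (y axis, a scale of its own in each panel) of the tested genes of 4 lists on each of 15 arrays, with the mean and SD of each group, and GK-Sham-PF replicate 5 as an open diamond. All 5 GK-S-30 arrays of the smooth muscle list lay above the other groups, and the mast cell list reached 7.42 at most in GK-S-30 rats and 8.12 in GK-Sham-PF rats.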

How the data were processed

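Intestinal RNA was hybridized with a single dye to Agilent rat arrays, 1 per rat. For each array the authors deposited intensity values as written by Feature Extraction 10.7.3.1, and its processed signal, already background-subtracted, was used. The authors also deposited a series matrix of log2 values, quantile-normalized between arrays, which served as an alternative. Control spots and outlier spots were left out. Spots of 1 probe were averaged, and log2 signals then quantile-normalized (limma 3.58.1, R 4.3.3). Files were read with jsonlite 2.0.0 and data.table (version 1.17.8), and figures drawn with matplotlib 3.10.9. Values are relative, as this normalization takes most genes to be unchanged. Precision is limited by the 5 arrays per group.

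Groups were taken from the sample titles. A probe was tested where all arrays of 1 group or more had it well above background (27893 of 41012 probes). A single limma model of all 15 arrays, with no covariates, gave the 3 comparisons, with Benjamini-Hochberg adjustment across these probes and a threshold of 0.05. The procedure was tested on simulated data. Tukey's correction per probe, which the methods used, was kept as an alternative. A listed gene is represented by its brightest tested probe. All member probes are described. From each other list up to 4 genes are named, called ones with the largest differences first, with proteases near the members in full and, for likeness, the 5 named genes with the highest coefficient. Genes named beyond this rule, for their role, were picked with their values in view. The members and lists were chosen with earlier results of these data known. Alternatives were another scaling, background correction or filter, the deposited matrix, slide and replicate number as blocks, array weights and leaving out arrays. Values within slides were added after the data were seen.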

Additional observations from a re-analysis of the deposited data

Results flagged for a closer look

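Within groups of 5 arrays, the highest or lowest array of each of the 10 probes was compared with its nearest neighbor, and 3 of 30 groups held an array that stood apart by Dixon's criterion (0.71 of the group's range). Chance gives about 1 in 20 such groups. Fcer1a on GK-Sham-PF replicate 5 was 4.49, against 6.16 to 6.31 on the other 4 arrays. Kit probe 1 on GK-Sham-PF replicate 3 was 6.84, against 5.08 to 5.51. Mcpt1 on GK-S-30 replicate 5 was 6.45, against 1.10 to 2.33, and this was the only array on which its spot was well above background.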

How the results depend on the processing

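Under 15 alternatives and 15 fits that each left out 1 array, the member probes called moved with the setting. For RYGB against sham-operated GK rats the 3 called became 0 with slide as a fixed block, 1 with Tukey's p after Benjamini-Hochberg adjustment, and 5 with array weights, without both dimmer arrays or by the methods' Tukey p alone. Leaving out 1 array gave 1 to 4. For GK-Sham-PF against Wistar rats the 1 called became 0 with no filter on dim probes, the slide block or adjusted Tukey p, and 3 with array weights, without both dimmer arrays or by Tukey's p alone. Leaving out 1 array gave 0 to 3. For GK-S-30 against Wistar rats the 2 called became 1 with normexp background, probes above background on all arrays, 1 probe per gene name or adjusted Tukey p, and 0 with the slide block. Leaving out 1 array gave 2 to 3. The call for Mcpt2 between GK-Sham-PF and Wistar rats was lost in 15 of these 30 fits, that between RYGB and sham-operated GK rats in 8 of 30, with log2 differences of 0.63 to 1.00 and -1.03 to -0.75. Ms4a2 probe 1 lost its calls against GK-Sham-PF and Wistar rats only with slide as a fixed block (1 of 30 fits each), with differences of -0.85 to -0.36 and -1.31 to -0.57. Ms4a2 probe 2 lost them in 13 and 3 of the 28 fits that tested it, with differences of -1.22 to -0.11 and -1.31 to -0.16. For both probes the smallest came with normexp background, whose offset of 50 narrows log2 differences of dim probes. Other causes were not tested.

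The labels do not say whether replicate numbers pair the rats. Deviations of same-numbered arrays correlated between -0.277 and 0.189, which cannot show how rats were assigned. With the replicate block, 1, 0 and 2 members were called in the 3 comparisons in the order above, and 1211 of all probes between RYGB and sham-operated GK rats.

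Of all probes, 1869, 2184 and 6352 were called in these comparisons. With slide as a fixed block these were 382, 414 and 454. With 1 probe per gene name, which tests fewer, they were 1193, 1001 and 3084, and with named probes only 1160 in the second and 3737 in the last. Adjusted Tukey p gave 763, 1384 and 4168, Tukey's p alone 3864 and 3775 in the first pair, and array weights 3388 and 4523. Leaving out 1 array gave 1196 to 2381, 1690 to 2414 and 5272 to 7039.

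Differences near 0, none of them called, changed sign. For GK-S-30 against Wistar rats Cpa3 became 0.02 with the slide block and 0.06 with array weights or without both dimmer arrays, with -0.16 to 0.13 when 1 array was left out. Fcer1a became 1.00, 0.06 and 0.02 under these settings, with -0.13 to 0.05, and Kit probe 2 became 0.02 with normexp background, 0.05 with array weights and 0.04 without both dimmer arrays, with -0.08 to 0.04. For GK-Sham-PF against Wistar rats array weights gave -0.03 for Kit probe 1 (-0.27 to 0.17), 0.05 for Kit probe 2 (-0.09 to 0.08), 0.05 for Ms4a2 probe 2 (-0.15 to 0.12) and -0.01 for Tpsab1 (-0.03 to 0.09). Without both dimmer arrays Kit probe 2 was 0.04, Ms4a2 probe 2 0.15 and Tpsab1 -0.04, and with the slide block Tpsab1 was -0.05. For RYGB against sham-operated GK rats Kit probe 2 became -0.16 with 75th percentile scaling and -0.01 with the slide block (-0.10 to 0.07).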
